A study of Homo sapiens with 4 samples.

Results

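Interferons, their receptors, the JAK kinases, the STAT and IRF transcription factors and the SOCS inhibitors were examined in MATR3 knockout and wild-type HAP1 cells. The genes were taken by a name rule, which was chosen with earlier results of these data known. They are panel probes whose symbol begins with IFNA, IFNB, IFNG, IFNL, IFNAR, IFNGR, TYK2 or PIAS. Symbols that begin with JAK, STAT, SOCS or IRF and a number were also taken. The set described here holds 33 of the 785 gene probes: 12 interferons, 4 receptor chains, 4 kinases, 6 STATs, 2 SOCS genes and 5 IRFs. Some interferon probes cover several near-identical genes, so the 33 probes stand for 40 gene symbols, and the transcripts under a shared probe cannot be told apart.

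RNA was counted with NanoString probes, which tally target molecules directly with no amplification step. HAP1 is an established human line that carries close to a single set of chromosomes, which makes complete knockouts simple to obtain. The labels name no treatment for either group: wild-type lines 1 and 7, and lines 1 and 5 with the MATR3 knockout, taken as separate clones or batches. Whether a culture, extraction or assay batch separates the groups is not stated. MATR3 encodes a nuclear RNA- and DNA-binding protein, and the series title concerns activation of the cGAS-STING pathway in its absence. The gene probes held none for MATR3, so these values do not check the genotype labels. Each group held 2 samples, and an exact permutation test cannot reach significance at that size, so tests rest on limma, which pools the spread over genes. Each line is 1 clone or batch, and p-values measure only the spread between these lines.

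Interferons are secreted proteins that signal infection. Alpha and beta interferons bind the receptor chains IFNAR1 and IFNAR2, interferon gamma binds IFNGR1 with IFNGR2, and the lambda interferons bind IFNLR1 with IL10RB. Receptor-bound kinases of the JAK family then phosphorylate STATs. STATs and IRF9 form the complex ISGF3, which binds the interferon-stimulated response element, or ISRE, while pairs of STATs bind the gamma-activated site, or GAS. IRF3 and IRF7 switch on the interferon genes after nucleic acid sensing, and SOCS proteins shut the JAKs down. STAT2, IRF1, IRF7, IRF9 and SOCS1 are themselves interferon-induced, so the pathway amplifies and then limits itself.

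Values are normalised counts, that is, probe counts that the authors had scaled by 1 factor per sample, and total gene counts lay between 448610 and 571767. A probe was taken as above background where it exceeded the mean plus 2 SD of the negative control probes of its sample, which came to 19.5 to 25.7 normalised counts. Of 11 leukocyte markers measured, 8 lay below the limit in all 4 samples, and CD14 and CD68 lay above it in all 4. HAP1 markers were not listed here, so the cell type was not checked further.

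None of the 25 members that could be tested, those with a mean of 20 or more, passed a Benjamini-Hochberg adjusted p of 0.05 in limma. Over all 514 tested genes 42 passed, or 8.17%. This count ran from 4 (limma without trend) to 62 (scaling on the reference genes without TBP) over the alternatives with all 4 samples. At an unadjusted p under 0.05 stood 2 members, IFNA6 and IFNGR2, or 2 of 25, against 19.8% of all tested genes. The quasi-likelihood test of edgeR on recovered counts gave the same numbers of members, 0 adjusted and 2 unadjusted. The members had a median log2 fold change of -0.06, and all tested genes had a median of -0.04. In 10 members both knockout values lay on one side of both wild-type values. That is 10 of 25, where 53.1% of all tested genes were separated in this way. Of these, 5 were higher in the knockout, against a background of 22.4%, and 5 were lower, against 30.7%.

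**Figure D1:**
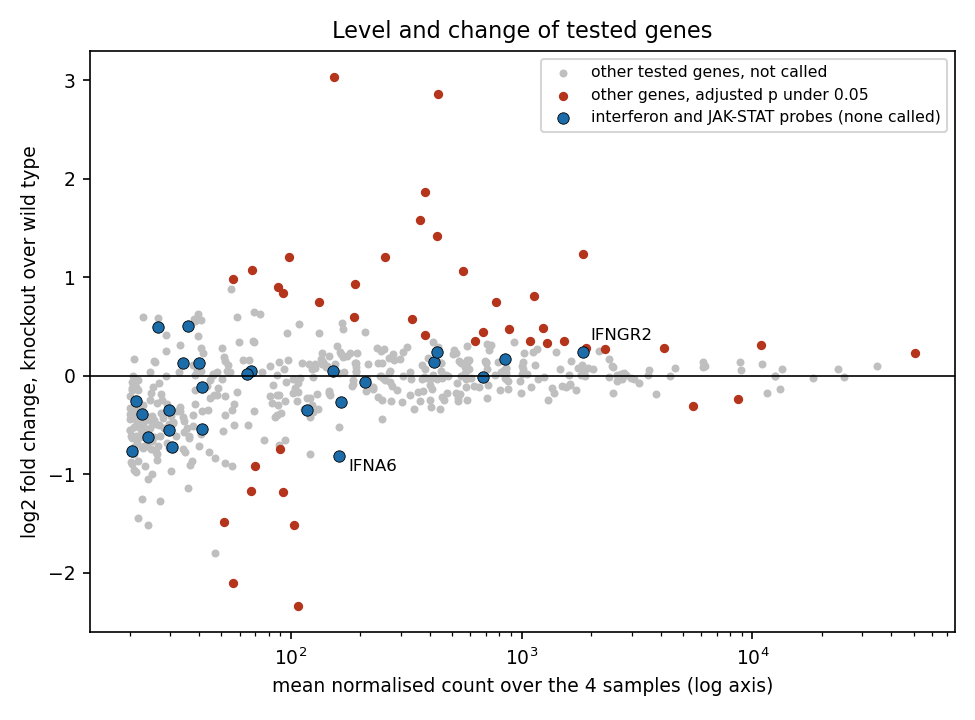
Mean normalised count over the 4 samples (log axis) against the log2 fold change of knockout over wild type for the tested genes. The 25 interferon and JAK-STAT members are blue, and none is among the 42 called genes in red; IFNGR2 at 0.25 and IFNA6 at -0.82 are the members with the lowest p-values.

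Precision set how small a change could be seen. The 95% limma interval of the log2 fold change lay wholly between -1 and 1 for 14 of the 25 members. For the well-counted ones this excludes a 2-fold change either way at that confidence. Some of the 14, such as IRF4, were near background, which shrinks a fold change. That of IRF4 was 0.13, and 0.25 with background subtracted, so a 2-fold change is not excluded for such probes. The interval lay within 0.5 of zero for 7: IFNAR1, IFNAR2, IFNGR2, STAT2, STAT3, STAT5B and TYK2. These intervals rest on the deposited scaling. That of STAT5B ended at 0.49, and its log2 fold change of 0.24 was 0.32 when the reference gene TBP was left out of the scaling. The median standard error was 0.15 for the 12 members with a mean of 50 or more and 0.37 for the 13 below it. Differences between lines of the same genotype were often as large as those between genotypes. In 6 members the knockout effect exceeded both within-genotype differences (IFNB1, IFNGR2, IFNLR1, IRF3, IRF7 and STAT6), which is 24% against 39.5% of all tested genes.

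**Figure D2:**
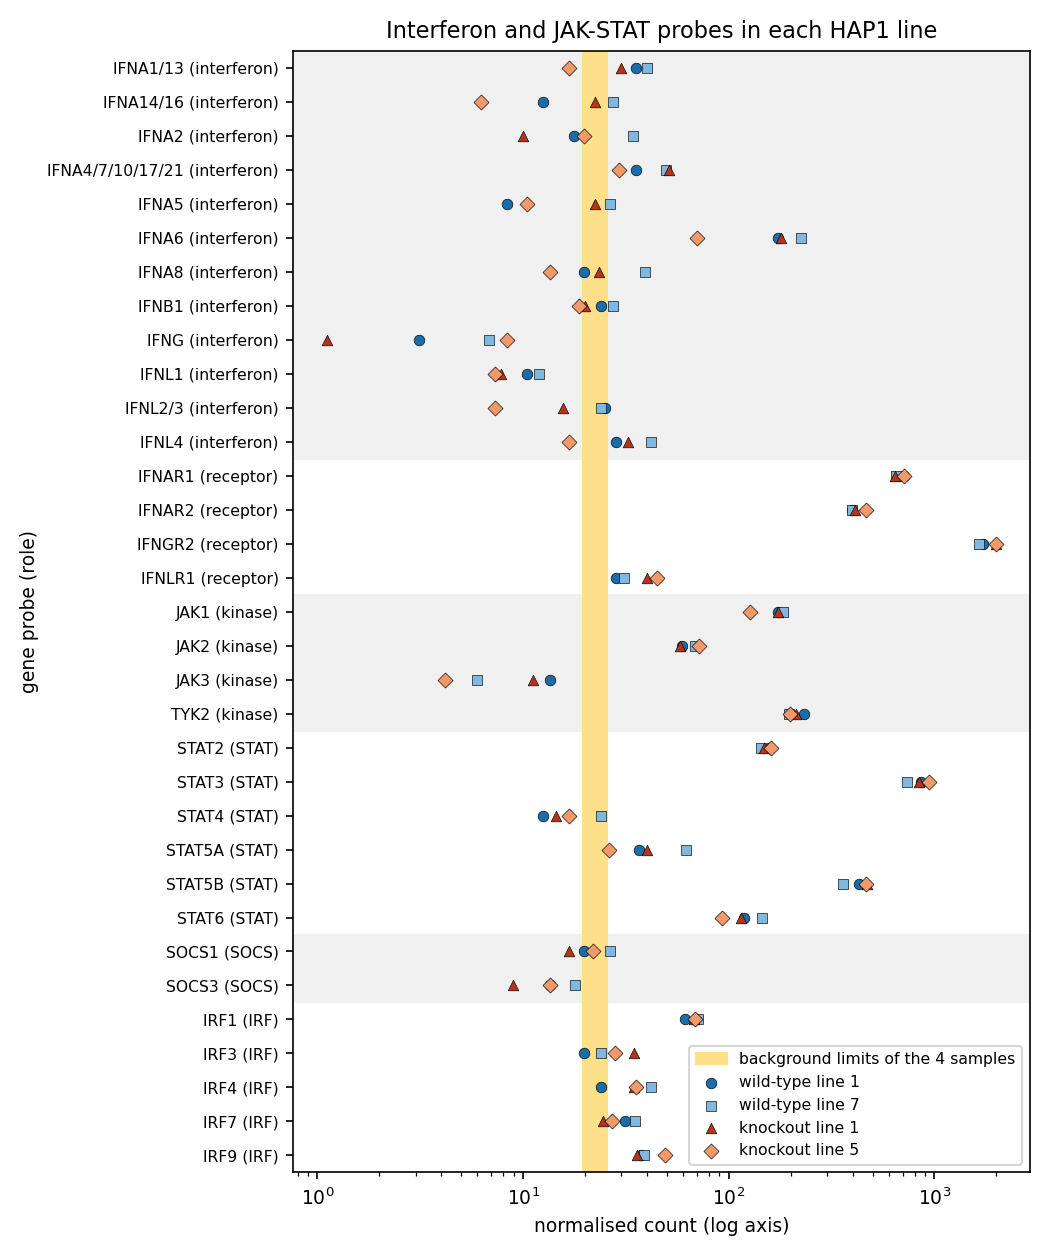
Normalised count (log axis) of the 33 members in each of the 4 lines, grouped by role, with the range of the background limits as a yellow band. The receptor chains IFNAR1, IFNAR2 and IFNGR2, STAT3 and STAT5B lie far above the band in all lines, and most interferon probes lie in or near it.

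The interferon genes were at or near background, except IFNA6. In RNA from a whole culture, fewer expressing cells and less RNA per cell cannot be told apart. Of the 12 interferon probes, 2 exceeded the limit in all 4 lines: IFNA6 and the probe shared by IFNA4, IFNA7, IFNA10, IFNA17 and IFNA21. IFNG and IFNL1 exceeded it in none. Above the limit were 10 interferon probes in wild-type line 7, 8 in knockout line 1, 4 in wild-type line 1 and 2 in knockout line 5. Over the whole panel of 785 genes, 558, 515, 448 and 409 were above the limit in the same order of lines, so the interferons ranked the lines as the panel did. Over all members, 17 of 33 were above the limit in every line, or 51.5%, against 49.6% of the panel.

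IFNB1 encodes interferon beta, the product usually read out after cGAS-STING signalling. It was counted at 24.0 and 27.4 in wild-type lines 1 and 7, against 20.03 and 18.7 in knockout lines 1 and 5. Both knockout values were below both wild-type values, and all 4 were close to the limit of their sample. The log2 fold change was -0.39 with a 95% interval from -1.25 to 0.47 (limma adjusted p = 0.579), so no difference was detectable at this depth.

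IFNA6, one of the alpha interferons, was the only interferon probe far above background. It stood at 174 and 224 in wild-type lines 1 and 7, against 179 and 69.7 in knockout lines 1 and 5. Knockout line 1 lay within the wild-type range, and knockout line 5 was the low value. The log2 fold change was -0.82 ± 0.33 (SE from limma, adjusted p = 0.197). Without knockout line 5 it was -0.14, without knockout line 1 it was -1.49 and without wild-type line 1 it was -0.996. In such a fit 1 group is a single sample and the spread is pooled over genes, so a pass there is not counted. IFNA6 passed the threshold when samples were scaled on the positive control probes (limma adjusted p = 0.0176). Over the alternatives with all 4 samples its adjusted p ran from 0.0176 to 0.461 (limma without trend).

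Wild-type line 7 was the highest line for 6 of the 7 alpha probes and knockout line 5 the lowest for 5. Among the 423 panel genes outside the set with a mean under 50, wild-type line 7 was highest in 53.0% and knockout line 5 lowest in 57.7%. The probe for IFNA1 and IFNA13 read 35.5 and 40.2 in wild-type lines 1 and 7, against 30.04 and 16.7 in knockout lines 1 and 5, a log2 fold change of -0.73 ± 0.38 (SE from limma, adjusted p = 0.314). Without knockout line 1 it was -1.14, and without knockout line 5 it was -0.32. IFNA8 read 19.8, 39.4, 23.4 and 13.5 in the same order of lines, and the groups overlapped. IFNA2 read 17.7, 34.2, 10.0 and 19.8, with overlapping groups. The probe shared by IFNA4 and its 4 relatives read 35.5, 49.6, 51.2 and 29.1, where knockout line 1 was the highest line and knockout line 5 the lowest. IFNL4, a lambda interferon, read 28.2, 41.9, 32.3 and 16.7, again with overlap. The limma adjusted p of these last 4 probes ran from 0.436 to 0.875.

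All 7 tested interferon probes had a log2 fold change below 0, with a median of -0.62. This was also the common direction of weakly counted genes: 144 of 173 tested genes with a mean under 50 were lower in the knockout, with a median of -0.43. Summed over the 12 interferon probes, the normalised counts were 394 and 554 in wild-type lines 1 and 7, against 415 and 224 in knockout lines 1 and 5. Over those 423 other weakly counted genes, the sums were 7762, 9152, 7394 and 5736 in the same order. The mean of the negative controls was 8.87, 8.56, 8.48 and 7.93. Wild-type line 7 was thus the highest and knockout line 5 the lowest for both sums. The ratio of highest to lowest was 2.47 for the interferons and 1.60 for the other weak genes, against 1.12 for the negative controls. Without IFNA6, which is not weakly counted, the interferon ratio was 2.14. The part of this sample difference in the interferon values was not tested.

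**Figure D3:**
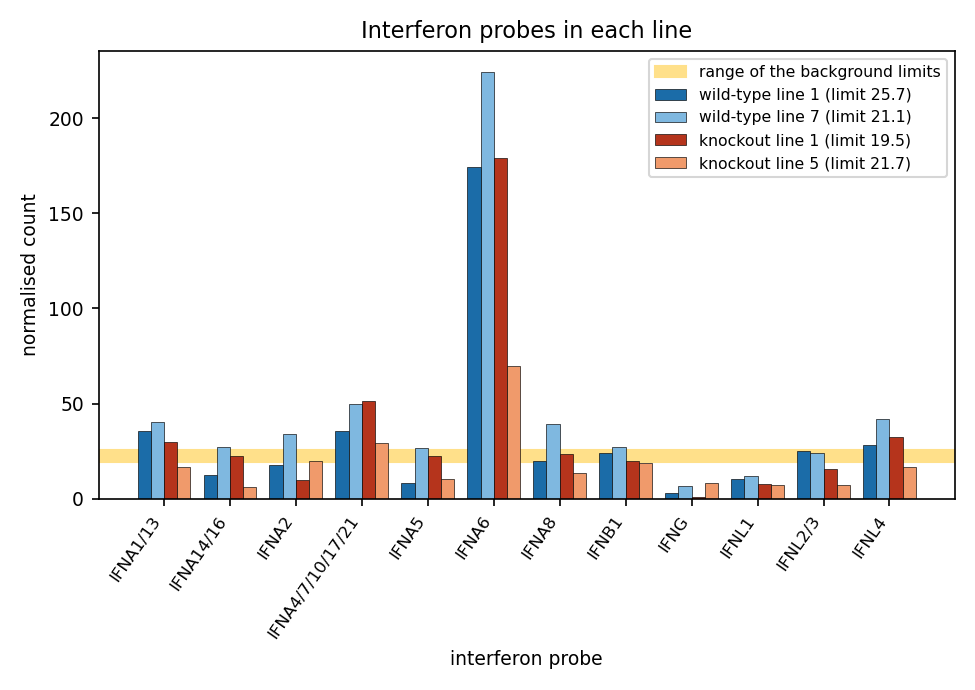
Normalised counts (linear axis from 0) of the 12 interferon probes, with 1 bar per line; the yellow band spans the background limits. IFNA6 reached 69.7 in knockout line 5 and 174 to 224 in the other lines, and IFNG and IFNL1 stayed below the band.

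Of the members that fell under the filter, 8 in number, 5 were interferon probes. They were IFNA5, the probe for IFNA14 and IFNA16, IFNG, IFNL1 and the probe for IFNL2 and IFNL3, joined by JAK3, STAT4 and SOCS3. Their single values ran from 1.11 to 27.4, and 6 of the 32 values exceeded the limit of their sample. Of these 8, 3 were lower in the knockout without overlap, both lambda probes and SOCS3, and 0 were higher. For SOCS3 this rests on 13.56 in wild-type line 1 against 13.53 in knockout line 5. Both are 13 recovered counts, so these lines tie. Among all tested genes 30.7% were lower without overlap, but these 8 are not among the tested genes. That share is therefore not a like background for them. Of the tested genes with a mean under 50, 144 of 173 had a lower knockout mean on the log2 scale. The probe for IFNL2 and IFNL3 read 25.0 and 24.0 in wild-type lines 1 and 7, against 15.6 and 7.28 in knockout lines 1 and 5. IFNL1 read 10.4, 11.98, 7.79 and 7.28 in that order, below the limit throughout. That is close to the negative control means of 8.87, 8.56, 8.48 and 7.93. JAK3, the kinase of lymphoid cytokine receptors, read between 4.16 and 13.6.

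Among the 4 receptor chains, all but IFNLR1 were well counted, and IFNGR2 came nearest to a call. IFNGR2, the signalling chain of the interferon gamma receptor, stood at 1722 and 1645 in wild-type lines 1 and 7, against 1993 and 1998 in knockout lines 1 and 5. Both knockout lines were above both wild-type lines, at means of 1684 ± 54.5 and 1996 ± 3.56 (SD, n = 2). The log2 fold change was 0.25 ± 0.07 (SE from limma, adjusted p = 0.0598), with a 95% interval from 0.09 to 0.40. TBP, one of the 10 reference genes used for scaling, itself rose in the knockout (0.75, limma adjusted p = 0.000274). As the 10 have equal geometric means in all samples, this leaves the 9 others at an average of -0.08 in log2, knockout over wild type. IFNGR2 passed in limma with equal sample medians (adjusted p = 0.0322), with scaling on the reference genes without TBP (0.00858) and with a filter at a mean of 50 (0.0372). Over the 13 alternatives its log2 fold change ran from 0.21 to 0.33 and its adjusted p from 0.00858 to 0.322.

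The alpha and beta receptor showed no such separation in both chains. IFNAR1 stood at 713 and 654 in wild-type lines 1 and 7, against 639.9 and 711 in knockout lines 1 and 5, a log2 fold change of -0.02 with an interval from -0.23 to 0.20. That sign turned positive under 3 of the scalings, which are equal medians, positive controls and the reference genes without TBP. IFNAR2 stood at 396 and 397 in the wild type and at 409.5 and 464 in the knockout lines, and the groups did not overlap. Its log2 fold change of 0.14 ± 0.11 (SE from limma, adjusted p = 0.478) was within the spread of the knockout lines. IFNAR2, IL10RB, IFNAR1 and IFNGR2 lie next to each other in that order in the RefSeq annotation of GRCh38.p14. IL10RB, the second chain of the lambda receptor and not a member by name, read 72.0, 83.0, 64.5 and 56.2 in wild-type lines 1 and 7 and knockout lines 1 and 5. Its log2 fold change was -0.35 ± 0.23 (SE from limma, adjusted p = 0.424). IFNLR1, the specific chain of the lambda receptor, read 28.2 and 30.8 in the wild type and 40.1 and 44.8 in the knockout. These groups did not overlap, but at this level the log2 fold change of 0.51 had an interval from -0.17 to 1.19 (limma adjusted p = 0.394).

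Among the kinases, TYK2 and JAK1 serve the alpha and beta receptor, and JAK1 and JAK2 the gamma receptor. TYK2 stood at 233 and 197 in wild-type lines 1 and 7, against 211 and 199 in knockout lines 1 and 5, with overlapping groups and an interval from -0.37 to 0.25. JAK1 stood at 174 and 184 in the wild type and at 174 and 127 in the knockout. Knockout line 1 almost equalled wild-type line 1, and line 5 was lower, for a log2 fold change of -0.27 ± 0.17 (SE from limma, adjusted p = 0.428). JAK2 read 59.5, 68.5, 57.9 and 71.8 in the same order, with the groups interleaved at a log2 fold change of 0.01.

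STAT2, a part of ISGF3, showed no detectable difference between genotypes. It stood at 158 and 143 in the wild type and at 149 and 161 in the knockout, with overlapping groups. The log2 fold change was 0.05 with an interval from -0.29 to 0.39 (limma adjusted p = 0.884), which excludes an increase by 0.5 on the log2 scale. STAT3, which relays signals of the interleukin-6 family, stood at 855 and 733 in wild-type lines 1 and 7, against 846 and 939.7 in knockout lines 1 and 5. The groups overlapped, at a log2 fold change of 0.17 ± 0.10 (SE from limma, adjusted p = 0.382). STAT5A and STAT5B are near-identical factors of growth hormone, prolactin and interleukin-2 signalling, and lie beside STAT3 in the annotation. STAT5B stood at 432 and 361 in the wild type and at 471 and 463 in the knockout without overlap, a log2 fold change of 0.24 ± 0.11 (SE, with adjusted p = 0.278). STAT5A pointed the other way, with 36.5 and 61.6 in the wild type and 40.1 and 26.02 in the knockout, and it overlapped at -0.54 ± 0.35 (SE, with adjusted p = 0.428). STAT6, the interleukin-4 and interleukin-13 factor, stood at 119 and 145 in the wild type and at 115 and 92.6 in the knockout. Its groups did not overlap, although knockout line 1 was close to wild-type line 1, and the log2 fold change was -0.35 ± 0.19 (SE, with adjusted p = 0.336). STAT4, a factor of interleukin-12 signalling, exceeded the limit only in wild-type line 7, at 24.0.

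The SOCS inhibitors were at the edge of detection. SOCS1, which blocks JAK kinases after interferon, read 19.8 and 26.5 in wild-type lines 1 and 7, against 16.7 and 21.9 in knockout lines 1 and 5. The groups overlapped, and the log2 fold change was -0.25 with an interval from -1.17 to 0.67. SOCS3, the inhibitor of STAT3 signalling, was below the limit in every line, between 8.90 and 18.0.

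The IRFs fell into factors of sensing, of response and of lymphoid cells. IRF3, which is activated by phosphorylation downstream of STING, read 19.8 and 24.0 in wild-type lines 1 and 7, against 34.5 and 28.1 in knockout lines 1 and 5. Its groups did not overlap, and its log2 fold change of 0.50 ± 0.37 (SE from limma, adjusted p = 0.46) had an interval from -0.31 to 1.30. IRF7, the interferon-induced amplifier of alpha interferon genes, read 31.3 and 35.1 in the wild type and 24.5 and 27.1 in the knockout. It was lower in both knockout lines, with a log2 fold change of -0.35 ± 0.34 (SE, with adjusted p = 0.554). IRF9, the DNA-binding part of ISGF3, read 37.6 and 38.5 in the wild type and 35.6 and 48.9 in the knockout, where line 5 was high and line 1 low. IRF1, an early target of interferon gamma, read 61.6 and 71.0 in the wild type and 67.9 and 68.7 in the knockout. Its knockout values lay inside the wild-type range, at a log2 fold change of 0.05 with an interval from -0.45 to 0.54. IRF4, a lymphoid factor, read 24.0, 41.9, 34.5 and 35.4 in the 4 lines, also inside the wild-type range for the knockout.

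**Figure D4:**
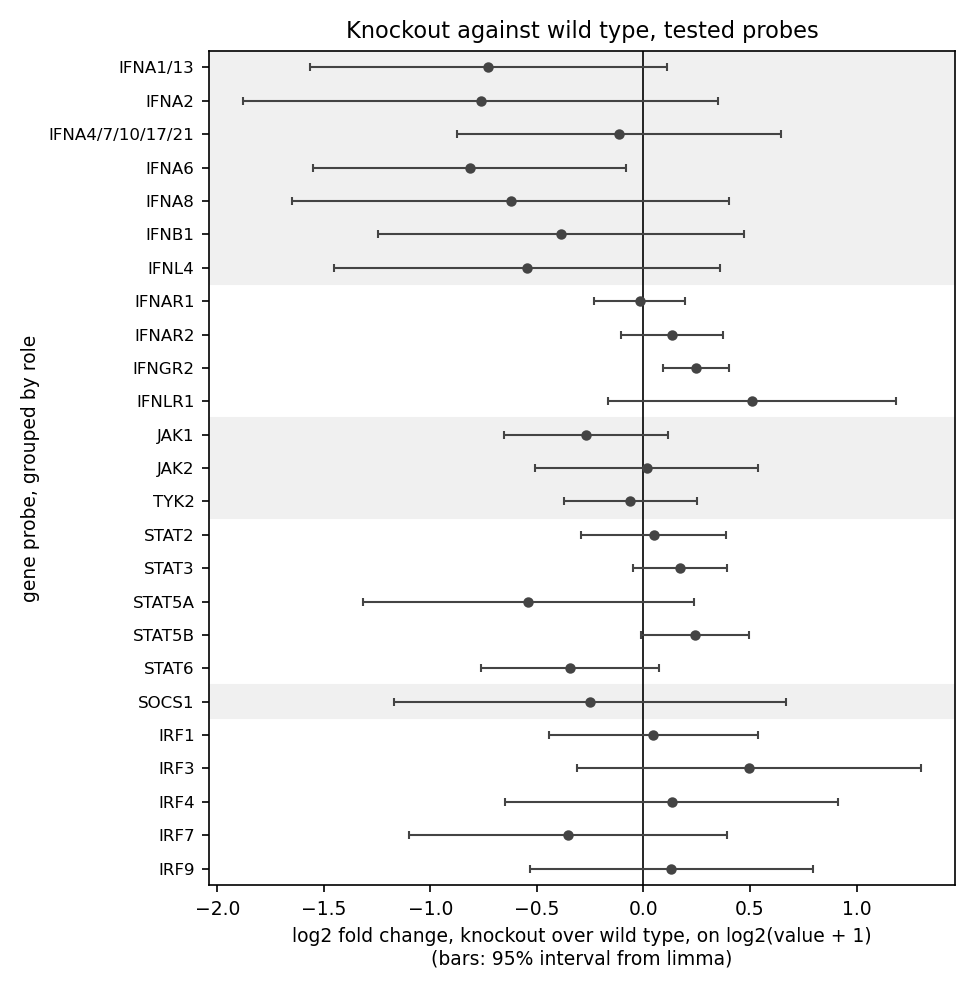
Log2 fold change of knockout over wild type on the log2(value + 1) scale for the 25 tested members, grouped by role, with bars for the 95% limma interval. Intervals are narrow for well-counted genes such as STAT3 (-0.05 to 0.39) and wide for interferon probes such as IFNB1 (-1.25 to 0.47); those of IFNA6 and IFNGR2 leave out zero, before adjustment for the number of genes tested.

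Several members carry the motifs of the factors measured here just upstream of their start. Both strands of the 250 bases before each RefSeq start (GRCh38.p14) were searched for the ISRE core GAAANNGAAA and for the GAS palindrome TTCNNNGAA. Sequences were found for 34 of the 40 gene symbols, in 45 start windows. An ISRE match occurred in 13.3% of these windows against 3.02% of 35116 windows of all genes, and a GAS match in 15.6% against 6.57%. The interferon genes among them are close relatives and share sequence, so the windows are not independent. In all, 12 genes had a match of either kind, and the stretches below are examples. They hold letters that ISGF3, IRFs or pairs of STATs are known to recognise, and can be set beside the counts of their genes. The genes with a match that are not shown are IFNA5, IFNA13, IFNB1, IFNG, IFNL2 and IFNL3. Capitals mark the match, and each runs 5′ to 3′ on the strand of the gene.
IRF1, GAS, chr5:132490874-132490912, minus strand: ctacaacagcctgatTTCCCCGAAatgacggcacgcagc
IRF9, GAS, chr14:24161187-24161225, plus strand: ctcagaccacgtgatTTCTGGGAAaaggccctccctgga
IFNLR1, GAS, chr1:24187504-24187539, minus strand: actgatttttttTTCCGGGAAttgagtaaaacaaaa
SOCS1, ISRE, chr16:11256293-11256332, minus strand: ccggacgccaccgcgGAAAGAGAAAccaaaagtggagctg
IFNA1, ISRE, chr9:21440340-21440379, plus strand: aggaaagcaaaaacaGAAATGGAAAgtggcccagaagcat
IFNL1, overlapping ISRE matches on the opposite strand, chr19:39296178-39296223, plus strand: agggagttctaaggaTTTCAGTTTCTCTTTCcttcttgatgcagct

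The matches start 124 bases before the start of IRF1, 63 before that of IRF9, 238 before that of IFNLR1, 113 before that of SOCS1 and 84 before that of IFNA1. None of these 5 genes passed the test, and IFNL1 was under the filter. Their log2 fold changes were 0.05 for IRF1, 0.13 for IRF9, 0.51 for IFNLR1, -0.25 for SOCS1 and -0.73 for the probe of IFNA1 and IFNA13. A match is a description of the letters and not of binding.

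The genes around the pathway were counted through lists, which were chosen with earlier results of these data known. Their shares beside those of all tested genes are therefore descriptive only. Of 22 tested targets of type I interferon, 3 of them members (STAT2, IRF7 and IRF9), 12 were higher and 10 lower in the knockout, with a median of 0.09. At an unadjusted limma p under 0.05 stood 8, against 19.8% of all tested genes. Of these, IFITM3 (-0.80) and OAS1 (-1.52) were lower and IFI6 (0.60), DDX58 (0.43) and EIF2AK2 (0.24) higher, without an adjusted call. The 3 that passed the adjusted threshold in limma all rose. They were IFITM1, an antiviral membrane protein (1.86), ISG15, a ubiquitin-like modifier (1.21), and BST2, which tethers budding virions (0.27). None of the 3 members among these targets was called. Of 13 tested targets of interferon gamma, 8 were higher, and 3 rose: the immunoproteasome subunits PSMB8 (1.58) and PSMB9 (0.84) and the peptide transporter TAP1 (0.60). SOCS1 and IRF1, the members in that list, were not called. Over all tested genes, 6.23% rose and 42.4% had a higher knockout mean. With limma without trend, which called 4 genes in all, none of these 6 was called. IFITM1, ISG15 and PSMB8 kept their calls in the other 12 alternatives, which include fits with 1 sample left in a group. The call of BST2 in limma did not hold when wild-type line 1 was left out (adjusted p = 0.203), nor without either knockout line (0.0909 for line 1 and 0.0957 for line 5), and it was also lost with positive control scaling, background subtraction and no filter. PSMB9 lost it without knockout line 5 (0.346) and with background subtraction, and TAP1 without wild-type line 7 (0.0594) or knockout line 5 (0.125).

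Further upstream, 2 of 12 tested kinases and adaptors that act on IRFs rose (6.23% of all tested genes did), the DNA sensor CGAS (0.57) and the IRF3 kinase TBK1 (0.41). Of the list, 7 were higher and 5 lower, with a median of 0.12. At an unadjusted limma p under 0.05 stood 5. Beside CGAS and TBK1 these were IRAK4 (0.54), which was higher, and TANK (-0.44) and IRAK1 (-0.23), which were lower. Neither CGAS nor TBK1 was called with limma without trend. The call of CGAS was also lost without knockout line 1 (limma adjusted p = 0.0621), and that of TBK1 without wild-type line 7 (0.132) or knockout line 5 (0.222). TBK1 also lost its call under positive control scaling, background subtraction and no filter. IRF3, the substrate of TBK1, was near background, as given above. Of 16 tested receptors outside the set that signal through JAKs, 13 were lower, with a median of -0.17, where 296 of all 514 tested genes were lower. Of the 10 such receptors with a mean under 50, 8 were lower, against 144 of 173 genes at that level. Of the 16 receptors 0 passed in limma or edgeR, and 2 by limma and 1 by edgeR had an unadjusted p under 0.05. Of 6 tested STAT3 targets 0 passed with either tool, with 0 at an unadjusted p under 0.05, and their median was -0.03. Of 4 tested regulators of JAK-STAT outside the set, ISG15 alone rose.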

How the data were processed

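The table of the 4 samples held normalised signal for 785 gene probes. Per the values of the deposited signal, the authors multiplied whole counts by 1 factor per sample, since 100% of the values over 3 counts were whole multiples of that factor, within 0.006. The scaling method is not given in the sources used here, but 10 reference genes including TBP have equal geometric means in all samples, although TBP itself differed between the groups. R 4.1.1 is named in the submitters' processing notes. Control probes were unscaled whole counts.

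Knockout and wild type were compared with limma 3.58.1 in R 4.3.3 (lmFit, eBayes with trend, no covariates, two-sided) on log2(value + 1), which understates changes of low genes. All genes with a mean of 20 or more were fitted, with Benjamini-Hochberg adjustment over all of them and a threshold of 0.05. Alternatives were 3 scalings, background subtraction, a pseudocount of 10, other filters, limma without trend, edgeR 4.0.16 on recovered counts, other background limits and leaving out each sample. The name rule matched 34 probes, of which 1 is not reported here and is left out of the set, lists and plots but not of the fits. The other members are named. Other genes come from fixed lists where they passed the threshold. From the lists of type I interferon targets and of kinases and adaptors, genes at an unadjusted limma p under 0.05 are also named. IL10RB was added after its values were seen, and TBP is named as a reference gene. The members and lists were chosen with earlier results of these data known. Promoter sequences are from RefSeq, GRCh38.p14.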

Additional observations from a re-analysis of the deposited data

How the results depend on the processing

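No paired analysis was possible because wild type and knockout have only the number 1 in common. The number of members called, 0 in the comparison above, was 1 with equal sample medians (IFNGR2), 1 with positive control scaling (IFNA6), 1 with scaling on the reference genes other than TBP (IFNGR2) and 1 with a filter at a mean of 50 (IFNGR2). Without single samples it ranged from 0 to 2, and in each such fit the lone sample is assumed to vary like the other group. It was 0 with background subtraction, a pseudocount of 10, no filter, limma without trend and edgeR. The members with separated groups, 10 of 25, were 5 of 12 under the filter at 50, because fewer were tested. The median log2 fold change of the members, -0.06, was -0.25 without a filter, from -0.26 (without wild-type line 1) to -0.0504 without single samples, and 0.02 with the reference genes other than TBP. Members above the limit in all lines were 14 to 17 under other limits.

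Of the 25 tested members, 17 kept their sign in every alternative and 8 did not, all of them uncalled throughout. IFNAR1 turned to 0.0105 with equal sample medians, 0.0048 with positive control scaling and 0.066 on the reference genes other than TBP, and TYK2 to 0.021 with the latter. Without single samples the ranges were -0.093 to 0.059 for IFNAR1, -0.18 to 0.059 for TYK2, -0.51 to 0.28 for the probe of IFNA4 and its relatives, -0.056 to 0.15 for IRF1, -0.26 to 0.52 for IRF4, -0.092 to 0.36 for IRF9, -0.14 to 0.17 for JAK2 and -0.023 to 0.12 for STAT2. Apart from IFNAR1 and TYK2, these members turned only when a sample was left out. The cause was not tested. The median standard error was 0.37 for tested members with a mean under 50 and 0.15 for the others.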
